A study of Pimephales promelas with 270 samples.

Results

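The comparison described here is that of larvae of the fathead minnow (Pimephales promelas) kept for 48 h in 3.3 mg/l propranolol, the high dose, with unexposed controls of the same set, both at an age of 4 days post fertilization. It rests on 20 of the 266 libraries of the count table, 10 from the high dose and 10 from the controls, taken by their labels. The series exposed larvae of 3 ages (4, 5 and 6 days) for 6, 24 or 48 h to propranolol at 0.66 or 3.3 mg/l or to none, and each pairing of an age with a duration is called a set. The labels list 270 samples, and the 4 without a column in the table belong to other sets. The 10 low-dose libraries of the 4-day, 48 h set entered the fit to estimate the spread between libraries. They also took part in its filter, its scaling and the mean levels, and were not compared with either group. No strain or genotype is given.

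Larvae are whole animals, so each library mixes the RNA of all tissues, and a change in the number of cells of a type cannot be told apart from a change in the RNA per cell. The labels do not say whether a library holds 1 larva or several, whether libraries of a group came from separate vessels, or at which end of the exposure age was taken. The p-values therefore measure the spread between these libraries, part of which may be technical. The treatment text attached to the samples describes ethinyl estradiol, whereas the title, the design text and the dose labels describe propranolol, and the latter were followed.

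Propranolol is a beta-blocker: it occupies beta-adrenergic receptors, the receptors through which adrenaline and noradrenaline act, without activating them. These receptors couple to the enzyme that makes cyclic AMP and, in vertebrates including fish, set the rate and force of the heart beat and take part in mobilising sugar and fat. Propranolol is excreted by patients and reaches surface waters, and the fathead minnow is a standard fish for testing the toxicity of such compounds. The transcripts carry bare identifiers that the files do not pair with gene names, and 0 of 34856 matched the RefSeq gene table, so the receptors and their pathways could not be looked up and no sequence is given. The response is described by groups of transcripts and by 4 identifiers.

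Library totals ran from 7.79 to 23.2 M counts (median 14.2 M) in the controls and from 10.7 to 17.1 M (median 13.7 M) at the high dose. The log2 totals differed by 0.02 (23.66 ± 0.22 SD at the high dose, 23.64 ± 0.52 in controls, n = 10 each; two-sided permutation test, 100000 resamples, p = 0.905). Of these 20 libraries, 3 were under 9 M counts, all of them controls. Between 33587 and 34595 transcripts were detected per library, and the top 10 held 7.43% to 9.42% of all reads counted. A library's distance from the others of its group, as the root mean square difference in log2 CPM (read counts relative to library size, normalised by the trimmed mean of M-values), was 0.501 ± 0.028 (SD, n = 10) at the high dose and 0.508 ± 0.047 (SD, n = 10) in controls. The difference of -0.00714 was smaller than the spread (permutation test, p = 0.73). Each pair of libraries enters the distances of both, so these are not independent and the p-value is approximate. Control 2 lay farthest from its group at 0.632 and high-dose library 43 at 0.564; without both, the call count is 272 in place of the 292 given next.

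After 48 h at the high dose, 292 of 29508 transcripts tested in the 4-day larvae differed from controls, which is 0.99% of those tested (edgeR quasi-likelihood test, Benjamini-Hochberg adjusted p below 0.05). The change was mostly upward: 252 transcripts rose (0.854% of those tested) and 40 fell (0.136%). Before adjustment, 3148 transcripts (10.7%) had p below 0.05, 1764 of them with an estimate above 0 and 1384 below. The median log2 fold change over all transcripts tested was -0.01. The count was 168 (144 higher, 24 lower) without the 3 shallow controls, with every low-dose library kept, an alternative chosen after seeing the data. With DESeq2 it was 469 (377 higher, 92 lower). With control and high-dose libraries alone it was 247 of 28618 tested (217 higher, 30 lower), and 227 of these are among the 292.

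The changes were small for most called transcripts. The median rise was 1.46-fold, and 131 of the 252 risers changed by 1.25 to 1.5-fold, 72 by 1.5 to 2-fold, 31 by 2 to 4-fold and 3 by over 4-fold. The remaining 15 rose by less than 1.25-fold. The median fall was 1.44-fold, and 35 of the 40 transcripts that fell changed by less than 2-fold. The summed level of the risers was 0.883%, 1.01% and 1.11% of a control library's counts (lowest, median and highest) and 1.32%, 1.47% and 1.66% at the high dose. The summed level of the transcripts that fell was 0.161%, 0.178% and 0.202% in controls and 0.121%, 0.133% and 0.141% at the high dose. Both sums were apart between the groups in every library, as sums over transcripts chosen on these libraries would tend to be.

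**Figure D1:**
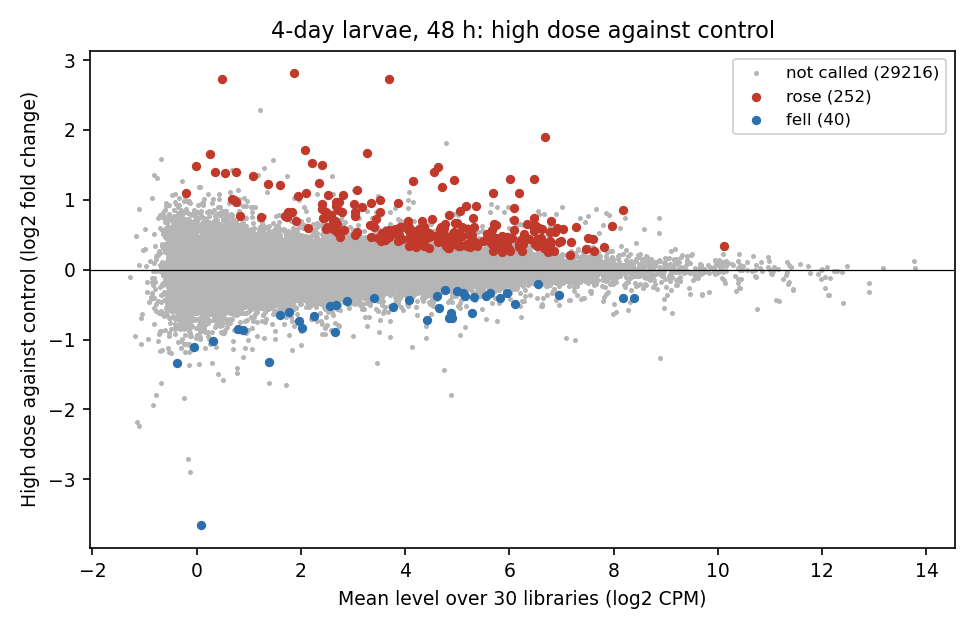
Each point is 1 of 29508 transcripts in 4-day larvae after 48 h, with its mean level over the 30 libraries of the set (log2 CPM, x axis) and the log2 fold change of the high dose against control (y axis); red points rose and blue points fell at an adjusted p below 0.05. The 252 risers outnumber the 40 that fell, and most calls lie at levels above 2 log2 CPM.

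Called transcripts were of medium to high abundance, with a median level of 4.72 log2 CPM for the risers and 4.52 for those that fell against 3.0 for all tested. The share that rose was 0.0968% at levels up to 0 log2 CPM, 0.244% from 0 to 2, 0.708% from 2 to 4, 1.5% from 4 to 6 and 2.33% from 6 to 8, and then 0.463% of the 432 transcripts above 8. The share that fell stayed between 0.0871% and 0.463% in every class of level. Relative counting error is smaller at high counts, and its part in these shares was not tested. Without matching for level, the risers also varied less between libraries than all transcripts tested. Their median coefficient of variation was 0.173 in controls and 0.172 at the high dose, against 0.217 and 0.211 for all tested. For the transcripts that fell it was 0.210 and 0.177. A small change passes the test more readily where the spread is low, so these values are partly set by the choice.

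The rise was shared by most libraries of the high dose. A riser had a median of 8 of 10 high-dose libraries above the highest control, and 129 of the 252 had at least 8, against 179 of all 29508 tested; the risers were chosen on these same libraries, so the counts are a description. For 24 transcripts (0.0813% of those tested) every high-dose library lay above every control, and all 24 were among the risers, with folds of 1.28 to 3.73 and a median of 1.61. The falls overlapped more: 0 transcripts (0%) had every high-dose library below every control, and the 40 that fell had a median of 5.5 of 10 high-dose libraries below the lowest control. In no called transcript did 1 library hold over 50% of its group's summed level, and the highest share was 41.6% among the risers and 36.5% among those that fell.

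Single libraries were scored by the median log2 difference of the risers from the control mean. For a control, that mean was taken over the other controls of its set. Controls scored from -0.11 to 0.11 and high-dose libraries from 0.37 to 0.67, with a median of 0.54. Library 31 was the lowest of the high dose at 0.37, library 35 followed at 0.41, and library 34 was the highest at 0.67. On the transcripts that fell, controls scored from -0.16 to 0.16 and high-dose libraries from -0.61 to -0.40, and library 31 was again the one closest to the controls. These scores use the libraries on which the lists were chosen, so the gap between groups is a description.

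The riser with the smallest p among those of at least 1 log2 CPM was FMt016931. Its level was 27.9, 32.2 and 40.3 CPM in controls (lowest, median and highest of 10) and 44.2, 61.0 and 79.2 CPM at the high dose. Every high-dose library lay above every control. Its mean rose from 32.9 ± 3.57 to 62.2 ± 10.7 CPM (SD, n = 10 each), which is 0.91 ± 0.10 (SE) in log2 units (edgeR adjusted p = 1.35e-06). The transcript numbered directly after it rose by a similar factor, from 7.93 ± 2.11 to 15.4 ± 2.98 CPM, or by 0.95 ± 0.14 (SE) in log2 units (edgeR adjusted p = 0.000155). Whether neighbouring numbers are parts or copies of 1 gene, which could share reads, is not given in the sources used here.

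FMt015289 was scarcer and rose further. Its level was 2.1, 2.8 and 4.72 CPM in controls (lowest, median and highest) and 5.38, 8.54 and 13.5 CPM at the high dose. The groups did not overlap, and the lowest library still had 18 counts. The log2 fold change was 1.52 ± 0.17 (SE; edgeR adjusted p = 1.98e-06), or 2.87-fold. The transcript numbered after it also rose, by 1.06 ± 0.23 on the log2 scale (edgeR adjusted p = 0.012), while the one before it stood at 25.7 ± 2.78 CPM in controls and 25.9 ± 3.05 CPM at the high dose (log2 fold change 0.00 ± 0.09, edgeR adjusted p = 0.995).

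FMt015446 had the smallest p among the transcripts that fell. Its level was 18.7, 35.7 and 40.4 CPM in controls and 16.6, 21.0 and 26.1 CPM at the high dose. The groups overlapped through control 2 alone, which stood at 18.7 CPM while the other 9 controls were at 30.1 CPM or above. The log2 fold change was -0.69 ± 0.12 (SE; edgeR adjusted p = 0.000495), and in a joint fit of 5 sets the same estimate of -0.69 missed the threshold (edgeR adjusted p = 0.178).

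FMt000461 was the other transcript named among those that fell. It was at 15, 24.6 and 31.6 CPM in controls and at 9.2, 14.5 and 20.5 CPM at the high dose. The groups overlapped, with 5 of 10 high-dose libraries below the lowest control. The log2 fold change was -0.71 ± 0.13 (SE; edgeR adjusted p = 0.00206). The transcript numbered after it fell too, from 2.03 ± 0.632 to 1.15 ± 0.451 CPM (log2 fold change -0.86 ± 0.22, edgeR adjusted p = 0.0473).

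**Figure D2:**
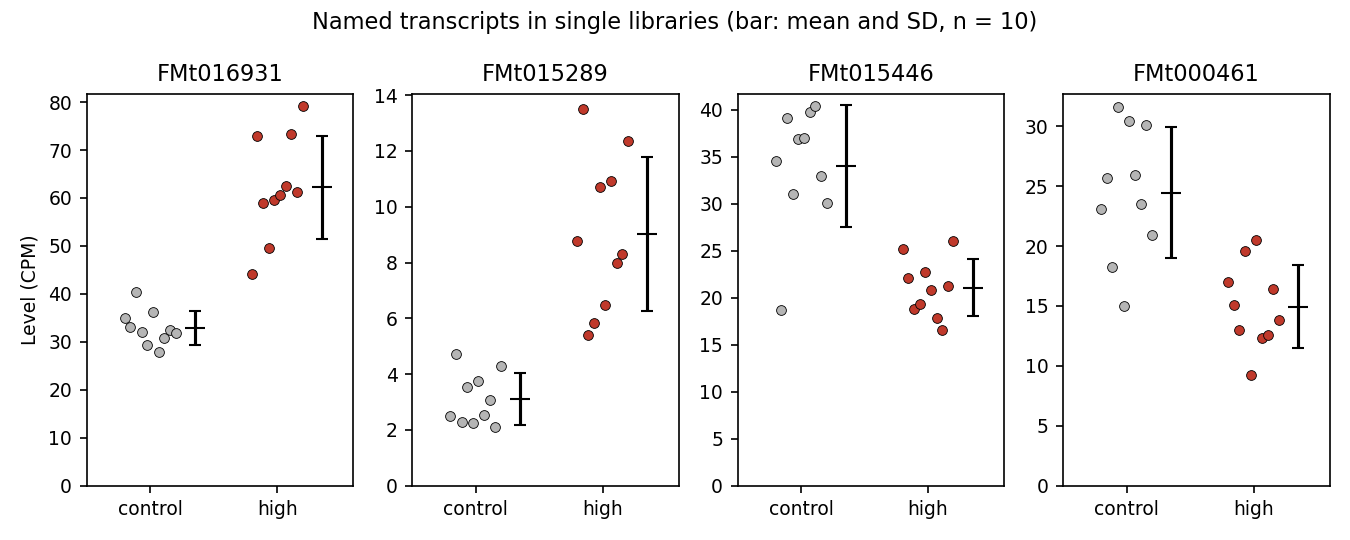
Level of the 4 named transcripts in each control (grey) and high-dose (red) library of the 4-day, 48 h set, in CPM on a y axis from 0, with the mean and SD of 10 libraries as a bar. FMt016931 and FMt015289 do not overlap between the groups, and 1 control at 18.7 CPM lies among the high-dose libraries for FMt015446.

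Risers were often numbered side by side. Of the 252, 39 (15.5%) had a directly adjacent number that also rose, against 361 (1.22%) of all transcripts tested, and 0 had an adjacent number that fell. The risers formed 13 pairs, 3 runs of 3 and 1 run of 4 consecutive numbers. The transcripts that fell formed 1 pair. The 322 uncalled neighbours of risers had a median log2 fold change of 0.04, with 57.5% above 0 against 48.2% of all tested. In 60 control libraries of other sets, adjacent transcripts had a median correlation of 0.09 within groups (12811 pairs, 10.7% of them above 0.5) and transcripts 100 numbers apart one of 0.00 (11253 pairs, 2.47% above 0.5). The risers may therefore not all be independent items.

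The run of 4 held all 3 transcripts that rose by over 4-fold. In number order, the first of the run rose 7.02-fold, from 2.02 ± 1.28 to 14.3 ± 7.8 CPM (SD, n = 10 each; edgeR adjusted p = 0.000488). The second rose 6.63-fold, from 0.826 ± 1.02 to 5.75 ± 2.77 CPM (edgeR adjusted p = 0.00485). The third was the most abundant and rose 6.66-fold, from 8.8 ± 7.19 to 60 ± 30.2 CPM (edgeR adjusted p = 0.00256). The fourth rose 2.83-fold, from 4.28 ± 1.35 to 12.2 ± 7.0 CPM (edgeR adjusted p = 0.00574). Between 8 and 9 of 10 high-dose libraries lay above the highest control for each of the 4, and library 31 was the lowest high-dose library for all 4. Their log2 fold changes in the other sets ran from 0.19 to 0.79 at 4 days and 6 h, 0.34 to 1.16 at 4 days and 24 h, 0.67 to 1.68 at 5 days and 48 h, and 1.44 to 2.90 at 6 days and 48 h.

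The largest fall belonged to a scarce transcript with few counts. It had 2 to 193 counts in controls (median 14) and 0 to 7 at the high dose (median 4), so the groups overlapped. Control 14 alone held 193 of the 466 control counts. The fitted change, -3.66 ± 0.89 (SE) in log2 units, was the largest in size of all 292 (edgeR adjusted p = 0.0372).

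How the response at 48 h compared with shorter exposures was examined in 4-day larvae after 6 and 24 h, which have controls and libraries of their own. At 24 h the 252 risers had a median log2 fold change of 0.18, with 221 above 0 and 59 (23.4%) over 1.25-fold up, against 50.4% above 0 and 5.2% over 1.25-fold for all tested. At 6 h their median was 0.09, with 179 above 0 but only 17 (6.75%) over 1.25-fold, against 6.06% of all tested. At 48 h, where they were chosen, it was 0.55. The 34 transcripts that rose by over 2-fold had medians of 0.19 at 6 h, 0.52 at 24 h and 1.31 at 48 h. The 40 transcripts that fell were at a median of -0.12 at 6 h (30 below 0) and -0.08 at 24 h (26 below 0), against -0.52 at 48 h.

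By library, the risers' score at 24 h ran from 0.01 to 0.44 at the high dose (median 0.16) and from -0.12 to 0.23 in controls, so the groups overlapped. At 6 h it ran from -0.05 to 0.22 (median 0.09) at the high dose and from -0.10 to 0.15 in controls, and overlapped more. Part of the drop from 48 h to the other sets is set by choosing the transcripts at 48 h.

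**Figure D3:**
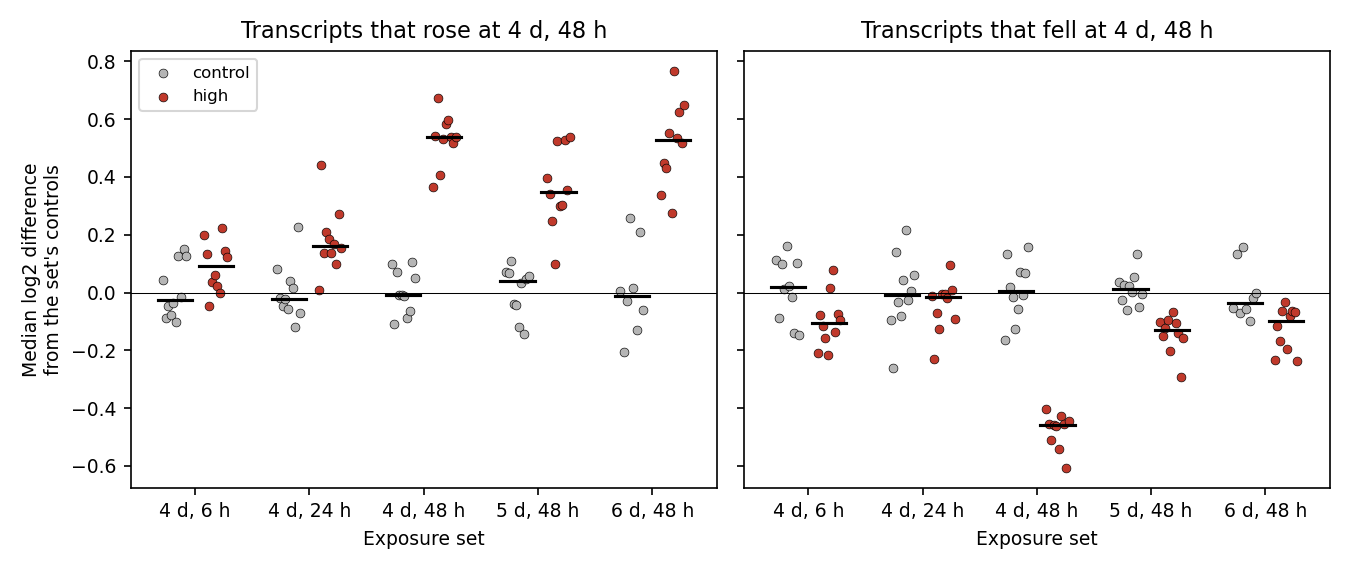
Each point is 1 library, a control (grey) or a high-dose one (red), of 5 sets (x axis), with bars at group medians. Its value is the median log2 difference from the controls of its own set, or from the other controls for a control. The left panel holds the 252 transcripts that rose at 4 days and 48 h, and the right panel the 40 that fell. High-dose medians for the risers are 0.09 at 6 h, 0.16 at 24 h and 0.54 at 48 h in 4-day larvae, 0.35 in 5-day and 0.53 in 6-day larvae; the lists were chosen on the 4-day, 48 h libraries.

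Tested directly as the difference between the effects of the high dose, in a joint fit of 148 libraries from 5 sets, 1 of 33195 transcripts (0.00301%) differed between 48 and 24 h. It was a riser that stood at 83.1 ± 12.8 CPM in controls and 126 ± 15.3 CPM at the high dose after 48 h (SD, n = 10 each). Its log2 effect was 0.60 at 48 h and 0.06 at 24 h, a difference of 0.54 ± 0.10 (SE; edgeR adjusted p = 0.00724). That call was 0 when the fit held the 48 and 24 h sets alone. Its effect was 0.75 in 5-day and 0.91 in 6-day larvae after 48 h.

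Between 48 and 6 h, 26 transcripts differed (0.0783%), 23 with the higher estimate at 48 h and 3 with the lower. Of the 26, 19 were risers at 48 h, 0 had fallen and 7 were neither. The 19 risers had a median log2 effect of 0.63 at 48 h and -0.12 at 6 h, and 15 of them were below 0 at 6 h. They were chosen on this same difference, which partly sets their low values at 6 h. All 252 risers had a median of 0.09 at 6 h, with 179 above 0. Of the 3 with the lower estimate, 2 had over 50% of a group's summed level in 1 library, and limma-voom called 10 transcripts, all with the higher estimate at 48 h. The median SE of a riser's difference between sets was 0.18 on the log2 scale. Duration cannot be told apart from the library code that each set has of its own. Sets of the same labelled age but unequal duration also differ in age, either at the start or at sampling.

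Older larvae exposed for the same 48 h gave an effect of mostly the same direction on the risers. In 5-day larvae their median log2 fold change was 0.37, with 238 of 252 above 0 and 144 (57.1%) over 1.25-fold up, against 48.4% and 8.04% of all tested. In 6-day larvae it was 0.51, with 239 above 0 and 184 (73.0%) over 1.25-fold, against 46.9% and 9.4%. The scores of single libraries ran from 0.10 to 0.54 in 5-day larvae, where 1 high-dose library fell inside the control range of -0.14 to 0.11, and from 0.28 to 0.77 in 6-day larvae, above every control (-0.21 to 0.26). The 34 transcripts over 2-fold had medians of 0.90 and 1.27.

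The 40 transcripts that fell at 4 days had a median log2 fold change of -0.13 in 5-day larvae. There, 34 were below 0 and 10 (25.0%) over 1.25-fold down, against 15234 of 29508 and 7.34% of all tested. In 6-day larvae the median was -0.22, with 28 below 0 and 14 (35.0%) over 1.25-fold down. Of all 29508 tested, 15656 were below 0 in the 6-day larvae and 10.6% over 1.25-fold down. Library scores in 5-day larvae ran from -0.29 to -0.07 at the high dose and from -0.06 to 0.13 in controls, so every high-dose library lay below every control. In 6-day larvae they ran from -0.24 to -0.03 at the high dose and from -0.10 to 0.16 in controls, and the groups overlapped. In the 4-day libraries, on which the list was chosen, the high dose scored from -0.61 to -0.40.

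**Figure D4:**
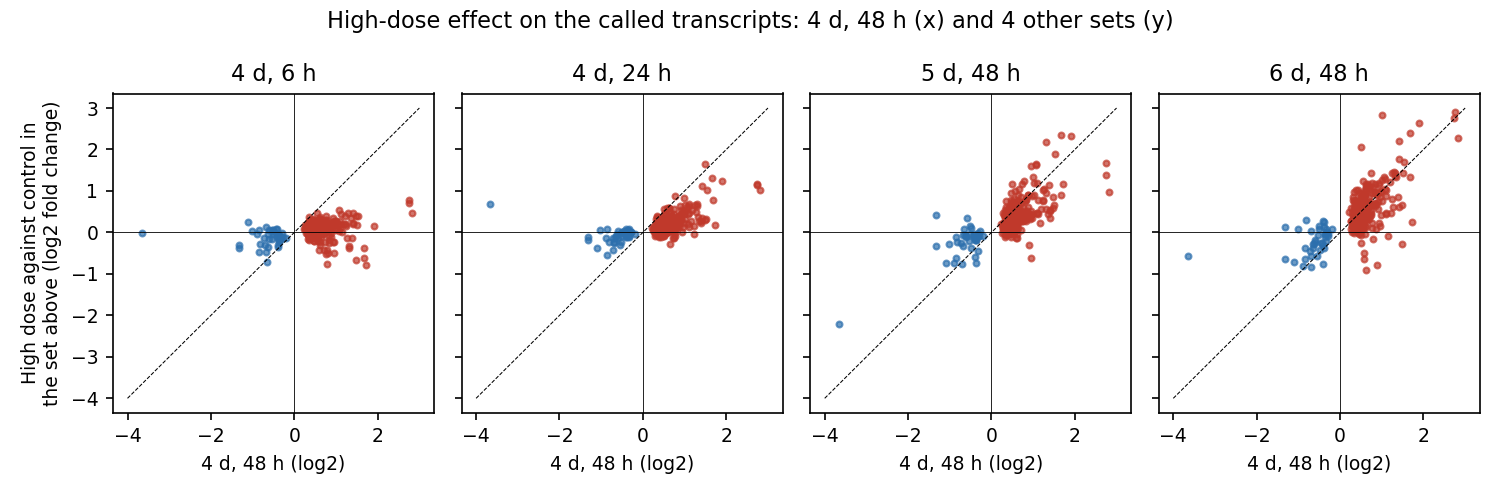
Log2 fold change of the high dose against control for the 292 called transcripts (red rose, blue fell) at 4 days and 48 h (x axis) and in each of 4 other sets (y axis), all from 1 joint fit; the dashed line marks equal effects. The risers' median at 4 days and 48 h (0.55) is closest to that in 6-day larvae after 48 h (0.51). Their median is nearest to 0 in 4-day larvae after 6 h (0.09).

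The direct test between 4-day and 5-day larvae called 0 of 33195 transcripts (0%) by edgeR and 0 by limma-voom, with 2333 at an unadjusted p below 0.05 and a lowest adjusted p of 0.144 by edgeR. This does not show that the responses were alike: the median SE of a riser's difference was 0.18 on the log2 scale. Libraries far from their group included 5-day controls 5 and 14, low-dose library 25 and high-dose library 43 after 48 h. Without the far libraries of all sets in the joint fit, 1336 of 33100 transcripts had an unadjusted p below 0.05. Again 0 were called. The number below that unadjusted line thus depended on the far libraries. Between 4-day and 6-day larvae, 111 transcripts differed (0.334%), of which 8 were risers of the 4-day larvae, 2 had fallen there and 101 were neither. For 101 of the 111 the effect was the larger one in 6-day larvae. In 69 the 6-day effect was above 0, with a median of 0.86 against 0.03 at 4 days, and in 42 it was below 0, with a median of -0.63 against 0.14. The count was 70 (20 with the higher estimate at 4 days and 50 with the lower) when only these 2 sets were fitted. With limma-voom it was 141 and the balance turned, with 78 higher at 4 days and 63 lower. Which direction prevailed thus depended on the method. In 7 of the 111, over 50% of a group's summed level came from 1 library.

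Among the 8 risers that differed from the 6-day larvae, 5 had the higher and 3 the lower estimate at 4 days. Those 5 had an estimate below 0 in the 6-day larvae. All 8 were chosen on this difference too, so effects far apart are partly set by the choice. Their log2 effects ran from -0.91 to 2.83 at 6 days and from 0.44 to 1.15 at 4 days over all 8. The 2 transcripts that fell stood at -0.40 at 4 days and at 0.26 and 0.28 at 6 days. Age cannot be told apart from the library code of the sets.

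Of the 4 named transcripts, FMt015289 had log2 effects of 0.40 ± 0.21 (SE) at 6 h and 1.03 ± 0.22 at 24 h in 4-day larvae, and of 1.89 ± 0.22 and 1.71 ± 0.22 in 5-day and 6-day larvae after 48 h (edgeR adjusted p = 0.491, 0.0159, 2.92e-11 and 1.05e-09). On the scale of the joint fit its control level in 6-day larvae was 8.19, 12.9 and 23.1 CPM (n = 8) and its high-dose level 31.3, 46.3 and 56.7 CPM (n = 10), again with no overlap. FMt016931 had effects of 0.35 ± 0.14 at 6 h, 0.31 ± 0.14 at 24 h, 0.38 ± 0.14 in 5-day and 0.74 ± 0.15 in 6-day larvae, of which the last passed the test (edgeR adjusted p = 0.35, 0.898, 0.161 and 0.000332).

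FMt000461 had log2 effects of -0.30 ± 0.16 (SE) at 6 h and -0.42 ± 0.16 at 24 h in 4-day larvae, which did not pass the test (edgeR adjusted p = 0.479 and 0.76). Those of -0.76 ± 0.17 and -0.83 ± 0.18 in 5-day and 6-day larvae did (edgeR adjusted p = 0.00271 and 0.000914). FMt015446 was near absent early, at 0.131, 0.886 and 2.34 CPM in the 4-day controls at 6 h, and stood at 5.0, 16.5 and 24.6 CPM at 24 h. Its effects in the 4 other sets, from -0.56 to 0.14, did not pass the test. For none of the 4 did the effect at 4 days and 48 h differ from that of another set in the direct test (edgeR adjusted p from 0.148 to 0.981).

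Controls of the 6 sets of 6 and 24 h gave a measure made without any library of a 48 h set: how each transcript differs with age in unexposed larvae. Of the 252 risers, 163 (64.7%) were higher in 6-day than in 4-day controls and 28 (11.1%) lower, against 24.6% higher and 24.7% lower among all tested (29478 transcripts in both fits; edgeR, adjusted p below 0.05). Their median log2 difference with age was 0.41. Of the 40 transcripts that fell, 3 (7.5%) were higher and 23 (57.5%) lower with age, with a median of -0.28. Among transcripts of at least 3 log2 CPM, 64.8% of 199 risers were higher with age against 26.2% of all 14729. At the same levels, 62.5% of the 24 that fell were lower with age against 33.0% of all 14729. In these 6 and 24 h controls, high-dose risers were thus mostly transcripts whose level was higher in the older larvae. Those that fell were mostly ones whose level was lower. Here too, age cannot be told apart from the library code of the sets.

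Time in the experiment was examined in the same controls, where it cannot be told apart from the library code either. Nor can it be told apart from age, which differs with duration either at the start or at sampling. Between 24 and 6 h in controls, 88 of the 252 risers (34.9%) were higher and 48 (19.0%) lower, against 11.4% and 11.4% of all tested. Of the transcripts that fell, 5 (12.5%) were higher and 10 (25.0%) lower. Across all 29478 transcripts the effect of the high dose correlated with the difference with age at r = 0.23, and with that between 24 and 6 h at r = 0.17. Over the 14729 transcripts of at least 3 log2 CPM the values were 0.35 and 0.24. At those levels the 4-day, 48 h effect correlated with that in 5-day and 6-day larvae after 48 h at r = 0.39 and 0.31. With that in 4-day larvae after 24 and 6 h the values were 0.23 and 0.14. Over all 29508 tested they were 0.25, 0.19, 0.09 and 0.11 in the same order. These are descriptions across transcripts, which are not independent of each other and share their abundance and base composition between the measures, although no library was shared.

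**Figure D5:**
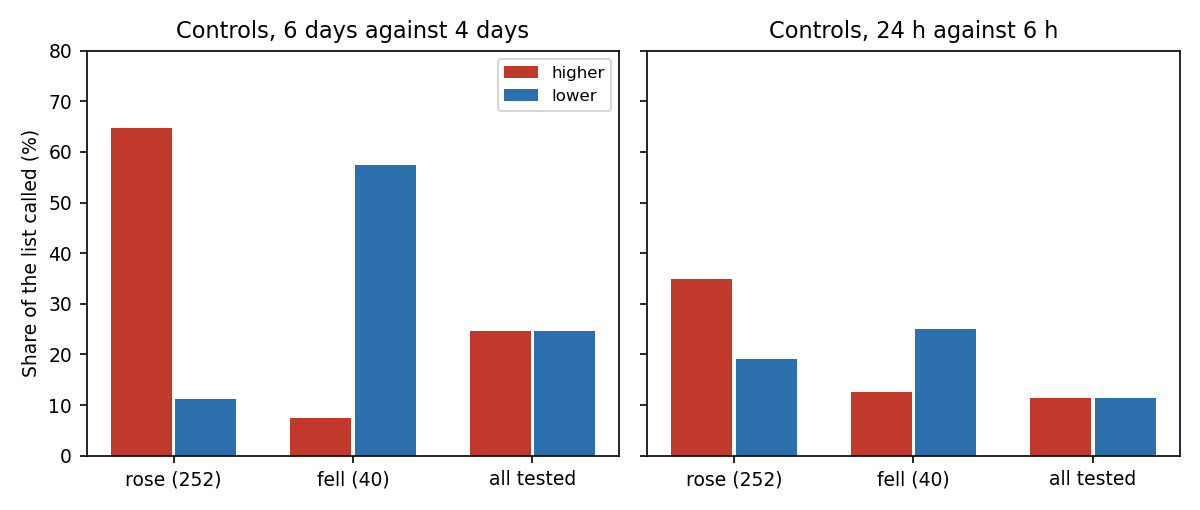
Share (%) of the 252 transcripts that rose, the 40 that fell and all transcripts tested that were called higher (red) or lower (blue) in unexposed larvae, at 6 against 4 days (left) and at 24 against 6 h (right), from 60 control libraries of other sets. With age, 64.7% of the risers were higher against 24.6% of all tested, and 57.5% of those that fell were lower against 24.7%.

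The risers differed in this course, and most of each kind were also raised by the high dose in 5-day and 6-day larvae after 48 h. Every riser was chosen for its rise in the 4-day larvae after 48 h, so the 4-day medians at 48 h follow from that choice. The 163 higher with age had median log2 effects of 0.56 in 4-day, 0.41 in 5-day and 0.48 in 6-day larvae after 48 h. The 28 lower with age, whose rise ran opposite to the difference with age, had medians of 0.54, 0.27 and 0.53, with 26 and 28 of 28 above 0 in the 5-day and 6-day larvae. The other 61 had medians of 0.48, 0.33 and 0.57. After 6 h the medians of the 3 kinds were 0.09, 0.10 and 0.09, and after 24 h 0.20, 0.12 and 0.13 in the same order. Both risers named were higher with age in the 6 and 24 h controls, FMt016931 by 0.48 ± 0.13 (SE) and FMt015289 by 1.00 ± 0.14 on the log2 scale (edgeR adjusted p = 0.00167 and 8.31e-09). FMt000461 was lower by 0.81 ± 0.10 (log2 difference -0.81, edgeR adjusted p = 2.0e-10), while FMt015446 was higher by 2.60 ± 0.22 (edgeR adjusted p = 3.38e-15). FMt015446 was thus 1 of the 3 transcripts that fell against their course in these controls. The 4 did not all keep this course in the 48 h controls of 4, 5 and 6 days (n = 10, 10 and 8). There FMt015446 had means of 34.1, 23.8 and 19.8 CPM, and FMt016931 of 32.9, 31.5 and 29.6 CPM. FMt015289 (3.1, 4.12 and 13.9 CPM) rose and FMt000461 (24.5, 16.0 and 13.2 CPM) fell there too. The 4-day values were scaled within their set, the others over 5 sets.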

How the data were processed

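The authors deposited 1 table of whole-number read counts per transcript for 266 libraries (34856 transcripts, lowest total 166 counts over all libraries). The SENSE mRNA-Seq kit was used on RNA from whole frozen larvae homogenised with a bead, per the labels' protocols, and mapping was to known transcripts of this species, per the series' design text. The submitters' processing notes name bcl2fastq 2.19.1, limma 3.40.6 and edgeR 3.26.8 without saying what each did. The sources used here give neither the aligner nor how reads common to similar transcripts were assigned, so counts of near-identical copies are uncertain. Whether transcripts with low totals were removed before deposit is not given either.

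Tests used edgeR 4.0.16 in R 4.3.3 (TMM scaling, filterByExpr, robust quasi-likelihood F-test, Benjamini-Hochberg threshold 0.05). The 30 libraries of the 4-day, 48 h set were fitted alone. Differences between sets came from 1 fit of 148 libraries, with the low dose of all 5 sets included, and the course in controls from 60 control libraries. The SE is the log2 fold change divided by the square root of F. Log2 CPM used a prior count of 2. limma 3.58.1 and DESeq2 1.42.0 served as alternatives, and Python 3.11.15 with SciPy 1.17.1 for permutation tests. The procedure was tested on simulated data, with a pass line on the recovery of 4-fold changes only. Most called changes here were smaller, so passing it does not speak to them. Within the control and the high-dose group of the 4-day, 48 h set, libraries differed by more than counting noise (lowest chi-square per degree of freedom 8.23). None of these was taken as a copy of another, and the other libraries were not checked in this way. Each library counted as 1 sample, although a shared vessel or pool cannot be seen by such a check.

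As no identifier had a gene name, the named transcripts are the 2 that rose and the 2 that fell with the smallest p among those called at a mean of at least 1 log2 CPM. The groups and lists were chosen with earlier results of these data known. Other settings left out each library in turn, libraries far from their group (over 3 median absolute deviations) and shallow ones, and changed the scaling, filter, tool, covariates and libraries fitted.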

Additional observations from a re-analysis of the deposited data

Results flagged for a closer look

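In 18 groups of library values, 2 held a library set apart from its group, where chance flags about 1 in 20 groups. Both were control 2 of the 4-day, 48 h set: its distance from the other controls was 0.632 in log2 CPM, and its level of FMt015446 was 18.7 CPM, under the other 9 controls. As both flags fall on 1 library, their number cannot be set against that rate.

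The effect of the high dose at 4 days and 48 h differed from that in another set, by a direct test, for 1 transcript against 24 h, for 26 against 6 h and for 111 against 6-day larvae.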

How the results depend on the processing

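The count of 292 called transcripts kept within 1.5 times under every other setting run except DESeq2 (469) and the removal of the 3 controls under 9 M counts, with every low-dose library kept (168, of which 158 are among the 292; chosen after seeing the data). Leaving out each library in turn gave 235 (without control 11) to 328 (without high-dose library 31), and a joint fit of 5 sets 255, of which 203 are shared. Risers made up 80.4% (DESeq2) to 90.1% of calls. FMt016931, FMt015289 and FMt000461 kept their calls in all 30 other settings, and FMt015446 in 29, missing in the joint fit (-0.69, edgeR adjusted p = 0.178). Fitting only the sets compared gave 0 transcripts in place of 1 between 48 and 24 h and 70 in place of 111 between 4-day and 6-day larvae, and limma-voom gave 10 in place of 26 between 48 and 6 h. The difference in library distance turned to 0.00806 without control 2 and high-dose library 43. An exact permutation test, on distances that are not independent, gave p = 0.319. The cause of the turn was not tested. High-dose and control libraries of a set share no number, and same-numbered libraries of different sets did not deviate together (292 pairs, r from -0.35 to 0.29, median 0.00). With the number as a replicate block the differences numbered 1, 19, 0 and 87 against 24 h, 6 h, 5-day and 6-day larvae. The control counts with the block were 15003 for age and 6903 for duration. Without the block, they were 14998 and 6827 of 31468 transcripts tested. The share of transcripts called higher was lowest at levels up to 0 log2 CPM; the part of depth in this was not tested.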
